A study of Mus musculus with 39 samples.

Results

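The genes described here encode the machinery that stores neurotransmitter in synaptic vesicles and releases it. Members were chosen by gene symbol. They are all genes whose symbol starts with Syt, Stx, Vamp, Cplx, Rab3, Sv2, Syngr or Stxbp, together with Syn1, Syn2, Syn3, Syp, Snap25, Snap91, Napa, Napb, Unc13a, Bsn and Pclo. The rule found 75 genes with 139 probe sets, of 12393 genes named by a single symbol and 22626 probe sets tested. The probe set with the highest mean over the 39 arrays stands for each gene. The rule itself uses no measured value. Rims1, also in the rule, was not analysed here. Because the rule reads prefixes, it also takes in genes that are not specific to synapses, namely 16 SNARE proteins of other membranes, 8 Rab proteins from Rab30 to Rab38 and 3 synaptotagmin-like genes.

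At a synapse, a vesicle SNARE (a Vamp protein) zips together with the plasma membrane SNAREs syntaxin and Snap25 and pulls the membranes together. Synaptotagmins sense calcium and trigger fusion, complexins clamp and then promote it, Munc13 proteins prepare the SNAREs, and the soluble attachment proteins Napa and Napb help to take spent SNARE complexes apart. Synapsins and Rab3 hold vesicles near the active zone, the release site that the scaffolds Bassoon and Piccolo organise, and the inferior colliculus of the midbrain receives many fast and precisely timed auditory synapses of this kind.

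All mice were CBA/CaJ, an inbred strain in which age-related hearing loss (presbycusis) is studied, bred in house, untreated and aged normally. RNA of the whole inferior colliculus of each mouse was hybridised to 1 Affymetrix MOE430A array. The 8 young controls (4 females, 4 males) and 17 middle-aged mice (10 females, 7 males) had good hearing, 9 mice (4 females, 5 males) had mild presbycusis and 5 (4 females, 1 male) had severe presbycusis. The sources used here give no ages, so age and hearing loss cannot be told apart in the comparisons with the presbycusis groups. Values are the deposited signal intensities. Differences are of log2(intensity + 16), so that the change of a dim gene is understated, and come with their standard error (SE) from limma, fitted to all probe sets with sex as a covariate. A gene was called at a Benjamini-Hochberg adjusted p under 0.05 over the 22626 probe sets.

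Arrays had median intensities of 150 to 224. Of 8 measured markers of the inferior colliculus, the summed intensity was 10721 to 22355 over all arrays. Gad1, Slc17a6 and Slc32a1 made up most of it, with medians of 6904, 4686 and 1694. Medians of the other markers in this list, such as Tfap2b and Otx2, were 72.3 to 283. On 3 arrays, of young mouse 2 and middle-aged mice 7 and 8, the summed intensity of 9 markers of the cerebellum, which adjoins the colliculus, was highest. It was 34517, 25886 and 5679 in that order, against group medians of 2710 to 3047. The highest of the other arrays, of middle-aged mouse 15, had 3909, so the signal was much weaker in middle-aged mouse 8. Another 8 arrays carry a suffix in their name, whose meaning the sources used here do not give. The log2 ratio of 3' over 5' control probe sets, a measure of RNA integrity, ranged from 1.38 to 3.06. Microglia markers rose in severe presbycusis against young controls (7 of 10 called, median 1.09), while the median of the 10 neuron markers was -0.24 with 0 called. In a piece of tissue, fewer cells of a type and less RNA per cell cannot be told apart.

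The promoters of 3 members are shown because Syt2, Vamp1 and Cplx1 encode the isoforms known from fast brainstem synapses, and because their variation between mice is compared below. Syt2 encodes a fast calcium sensor, Vamp1 a vesicle SNARE and Cplx1 a complexin. Each is the 250 bases before the transcription start in RefSeq (GRCm38.p6), read 5′ to 3′ on the gene's strand. Capitals mark the GC box GGGCGG, the motif of the factor Sp1, on either strand.
Syt2, chr1:134646362-134646611, + strand: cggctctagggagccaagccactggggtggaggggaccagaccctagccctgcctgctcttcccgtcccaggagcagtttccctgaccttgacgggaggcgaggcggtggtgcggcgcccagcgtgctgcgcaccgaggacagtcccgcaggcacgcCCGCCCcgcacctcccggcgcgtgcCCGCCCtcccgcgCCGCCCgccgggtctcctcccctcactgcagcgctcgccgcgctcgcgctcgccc
Vamp1, chr6:125215331-125215580, + strand: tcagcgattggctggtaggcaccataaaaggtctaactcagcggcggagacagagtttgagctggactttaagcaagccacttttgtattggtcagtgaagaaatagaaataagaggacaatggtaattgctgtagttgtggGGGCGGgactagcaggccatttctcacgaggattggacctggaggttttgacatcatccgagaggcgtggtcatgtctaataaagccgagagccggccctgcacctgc
Cplx1, chr5:108550028-108550277, - strand: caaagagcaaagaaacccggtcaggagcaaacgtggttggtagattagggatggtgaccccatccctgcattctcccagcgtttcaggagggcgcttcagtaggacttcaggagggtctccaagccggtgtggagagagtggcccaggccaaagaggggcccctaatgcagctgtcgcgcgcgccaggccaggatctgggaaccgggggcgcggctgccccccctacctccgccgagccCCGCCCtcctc
The first of 2 annotated Syt2 promoters held 3 GC boxes in 76.0% GC, that of Vamp1 held 1 in 50.4% GC, and that of Cplx1 held 1 in 64.8% GC. GC boxes were present in 44 of the 74 promoters matched for 57 of the members (59.5%) and in 32.7% of all 32817 promoters of this length. The cAMP response element TGACGTCA was found in 2 of the 74 (2.70%, against 1.55% of all) and TTCAGCACC, the left part of the RE1 silencer, in 1 (1.35%, against 0.302% of all), each searched on both strands. These matches describe the letters of the window and say nothing of binding.

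The first question was whether the release machinery differs with hearing status. No member was called in any of the 9 comparisons of the 4 groups and the sexes. In severe presbycusis against young controls 0 of 75 members were called, where 0.53% of all probe sets were. In the same comparison 7 members (9.33%) had an unadjusted p under 0.05, against 7.66% of all probe sets. Their median difference was -0.01, against -0.03 over all probe sets. In mild presbycusis against young controls 0 members were called (0.168% of all probe sets), and 6 (8%) had an unadjusted p under 0.05, against 6.61% of all. Their median was 0.04, against 0.03 over all. Both shares at unadjusted p lie near those of the whole array.

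In the other comparisons, too, 0 members were called. Middle-aged against young mice (0.00442% of all probe sets called) had 2 members (2.67%) at an unadjusted p under 0.05, against 5.09% of all. Mild against middle-aged mice (0.11% called) had 3 (4%, against 4.11%), and severe against middle-aged mice (0.486% called) had 2 (2.67%, against 5.91%). In severe against mild presbycusis limma called 0 members and 0 probe sets in all (0%), with 2 members (2.67%) and 843 probe sets (3.73%) at an unadjusted p under 0.05. None of these shares of members lay above that of the whole array.

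Both presbycusis groups against both groups with good hearing (0.84% of all probe sets called) had 4 members (5.33%) at an unadjusted p under 0.05, against 7.99% of all. Along the steps young, middle-aged, mild and severe (0.857% called) there were 5 (6.67%, against 8.64%). Males against females (0.0486% called) had 1 (1.33%, against 3.73%), the syntaxin Stx3, with a difference of 0.16.

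In severe presbycusis against young controls, the 95% interval of 68 of 75 members lay within 1 log2 unit (a factor of 2 either way), and that of 30 within 0.5. The 7 whose interval reached beyond 1 unit were Rab32, Rab37, Stx19, Stxbp4, Syn2, Syn3 and Syt5, of which Syn2 belongs to the synaptic core. In mild presbycusis 73 intervals lay within 1 unit and 44 within 0.5, with Rab30 and Syt5 beyond. On simulated data of this design, limma recovered 73 of 100 probe sets changed by 1 log2 unit in the severe group and 27 of 100 changed by 0.5. A change of the smaller size was mostly not detectable with 5 severe mice.

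**Figure D1:**
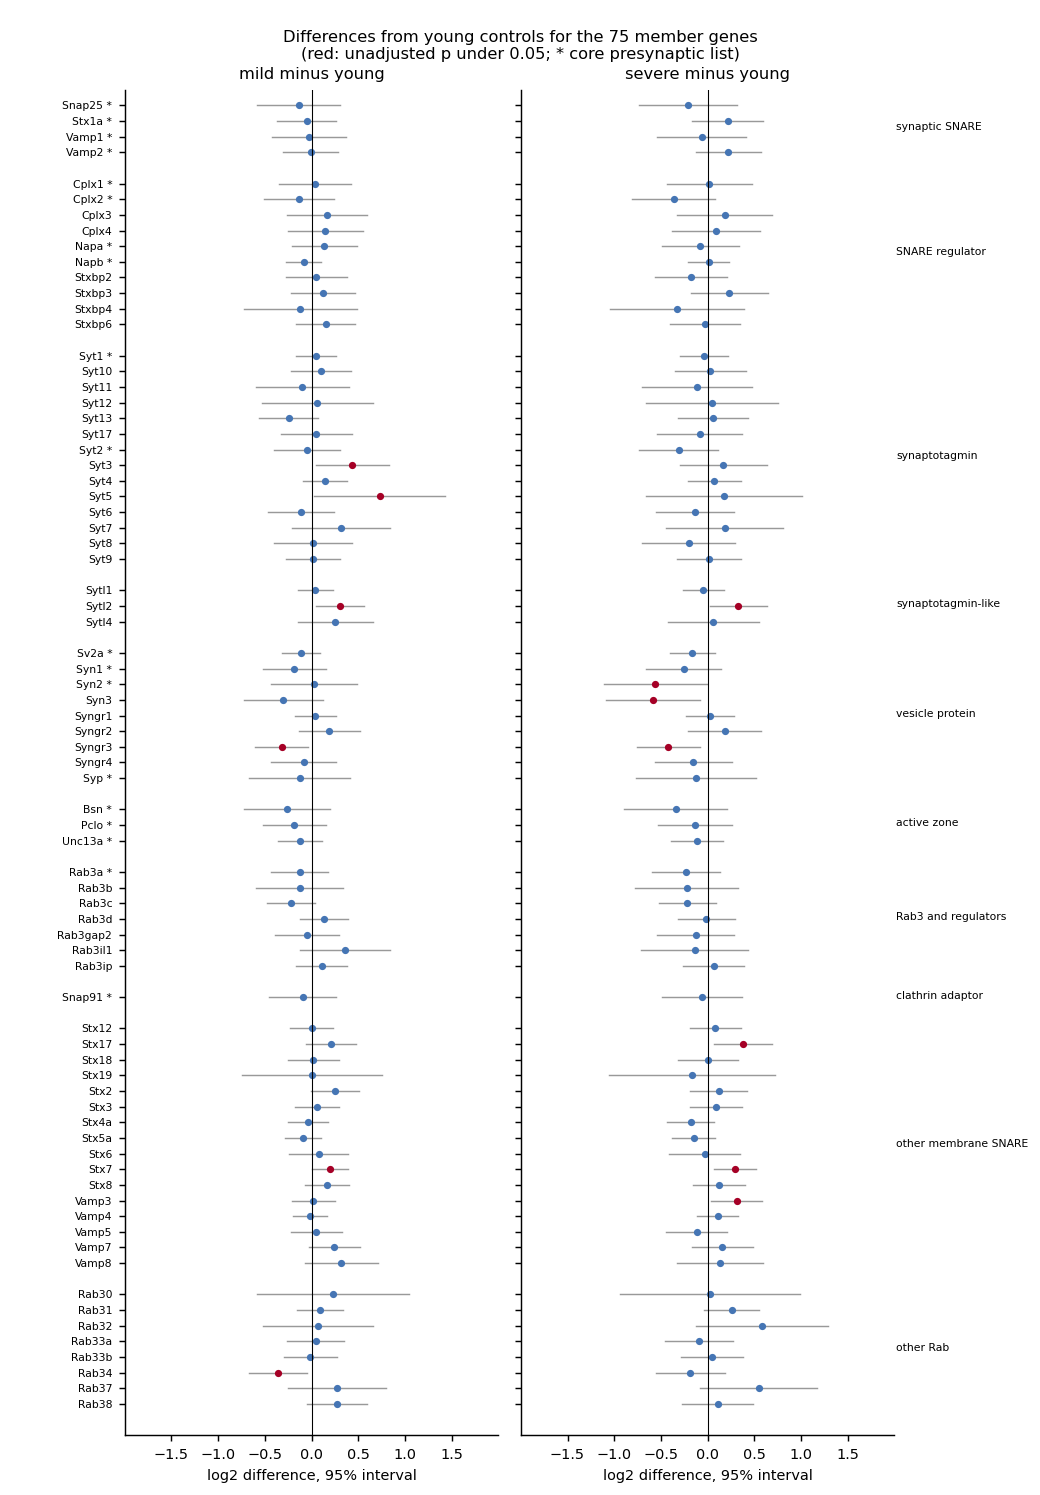
Log2 difference from young controls (point) with its 95% interval (line) for each of the 75 members, by role, in mild (left) and severe presbycusis (right). Red points have an unadjusted p under 0.05 (6 and 7 members), asterisks mark the core presynaptic genes, and most intervals cross 0.

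Among the fusion proteins of the synapse, Snap25, the plasma membrane SNARE that pairs with syntaxin, had intensities of 6049, 7621 and 9699 (lowest, median and highest) in young controls. They were 5059, 7604 and 20148 in middle-aged, 4038, 6132 and 13809 in mild and 4526 to 8936, with a median of 7241, in severe mice. The groups overlapped widely, and the severe group differed from young controls by -0.21 (SE 0.26, adjusted p 0.906 by limma). Stx1a, the syntaxin of the same complex, differed by 0.22 (SE 0.19) in severe mice, and a second Stx1a probe set by -0.23 (SE 0.15), neither called. The vesicle SNAREs Vamp1 and Vamp2 differed by -0.06 (SE 0.23) and 0.22 (SE 0.17). Of the 4 synaptic SNAREs, 4 lay below 0 in mild mice and 2 in severe mice.

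Among SNARE regulators, Cplx1 differed by 0.02 (SE 0.23) in severe mice, and Cplx2, the other main brain complexin, by -0.36 (SE 0.22, adjusted p 0.76 by limma). Cplx2 had an intensity of 4022 in young mouse 2, against 869 to 1543 in the other 7 young controls, and this array is 1 of the 3 with cerebellar signal. Without young mouse 2 the Cplx2 difference was -0.12, and without all 3 of these arrays it was -0.14, less than 0.5 of the size with them. Of the 10 regulators, 5 lay below 0 and 5 above in severe mice.

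Calcium sensors varied in both directions. Syt2 had 997, 1210 and 1560 in young controls (lowest, median and highest), 517, 1343 and 1867 in middle-aged, 847, 1209 and 1546 in mild and 728, 1001 and 1344 in severe mice. The groups overlapped, and the severe difference was -0.31 (SE 0.21, adjusted p 0.797 by limma). Syt1, the sensor common in forebrain, differed by -0.04 (SE 0.13). In mild against young mice Syt3 differed by 0.44 (SE 0.19) and Syt5 by 0.73 (SE 0.35), each above the young mean in 8 of 9 mice, with adjusted p of 0.682 and 0.731 by limma. The Syt3 median was lower in mild than in young females (128 against 159) and higher in mild than in young males (198 against 76.7). Over the alternatives its difference ranged from -0.17 to 0.997. Syt5 was dim, with a median of 68.1 in young and 142 in mild mice. Of the 14 synaptotagmins, 10 lay above 0 in mild mice and 8 in severe mice.

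Sytl2, which encodes a synaptotagmin-like protein that binds Rab27, had 761, 1581 and 2250 in young controls (lowest, median and highest). It had 1150, 1755 and 2159 in middle-aged mice, 1696, 1905 and 2193 in mild mice, and 1585, 1941, 1946, 1990 and 2068 in the 5 severe mice. All 9 mild and all 5 severe mice lay above the young mean, within the young range. The differences were 0.31 (SE 0.13, adjusted p 0.656) for mild and 0.33 (SE 0.15, adjusted p 0.613) for severe mice by limma. The lowest young value was that of young mouse 2, and over all alternatives that gave the severe difference it ranged from 0.16 to 0.42.

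Among vesicle proteins, Syngr3 had the smallest p of any member in the comparison of both presbycusis groups with both good-hearing groups. It encodes synaptogyrin 3, a membrane protein of synaptic vesicles. Its intensities were 1256, 1656 and 1829 in young controls (lowest, median and highest), 910, 1502 and 2011 in middle-aged mice and 898, 1241 and 1702 in mild mice. The 5 severe mice had 614, 1006, 1271, 1466 and 1789. The groups overlapped, with 8 of 9 mild and 4 of 5 severe mice below the young mean. Syngr3 differed by -0.34 (SE 0.10, adjusted p 0.132 by limma) between presbycusis and good hearing, by -0.42 (SE 0.17, adjusted p 0.462) in severe against young mice and by -0.16 per step (SE 0.05, adjusted p 0.146). It was called only without severe mouse 3, whose value was the highest of its group, at -0.41 (adjusted p 0.0243) between presbycusis and good hearing and at -0.19 per step (adjusted p 0.0324). Its second probe set differed by -0.14 (SE 0.16) in severe mice.

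The synapsins, which tether vesicles to each other and to actin, had 3 members. Syn2 had 657, 1048 and 1628 in young controls (lowest, median and highest) and 381, 614, 782, 806 and 1277 in severe mice, 4 of 5 of them below the young mean. Middle-aged mice had 472, 773 and 1825, with 14 of 17 below the young mean, and mild mice 722, 1029 and 1610. The groups overlapped, and the middle-aged median lay near that of the severe mice (782). It differed by -0.56 (SE 0.27, adjusted p 0.642 by limma), and a second probe set gave -0.56 (SE 0.28). Syn3, which was dim, had a median of 56.0 in young and 37.9 in severe mice, 5 of 5 below the young mean. It differed by -0.59 (SE 0.25, adjusted p 0.543 by limma). Young mouse 2, whose array had cerebellar signal, had 158 for Syn3, against 40.4 to 90.7 in the other young controls, and raised the young mean. Over the alternatives the Syn3 difference ranged from -0.86 to -0.36. Syn1 differed by -0.26 (SE 0.20), Sv2a, a vesicle glycoprotein, by -0.16 (SE 0.12), and Syp, the abundant vesicle protein synaptophysin, by -0.12 (SE 0.32), none called. The second Syp probe set differed by 0.45 (SE 0.22), also not called. Of the 9 vesicle proteins, 7 lay below 0 in severe and 6 in mild mice.

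The chosen probe sets of the 3 active zone genes lay below 0 in every comparison of a presbycusis group with a good-hearing group. The second Pclo probe set differed by 0.10 in mild against young mice, by 0.06 between presbycusis and good hearing and by -0.09 in severe against young mice. Pclo, the scaffold Piccolo, differed by -0.33 (SE 0.14, adjusted p 1 by limma) in mild against middle-aged mice. Bsn, the scaffold Bassoon, whose probe set was dim, differed by -0.34 (SE 0.27) and Unc13a, the priming factor Munc13-1, by -0.11 (SE 0.14) in severe against young mice. Rab3a, the main vesicle Rab of the brain, differed by -0.23 (SE 0.18) there, and 6 of the 7 genes of Rab3 and its regulators lay below 0. Snap91, which encodes the clathrin adaptor AP180 for vesicle recycling, differed by -0.06. None of these was called.

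Of the 16 SNAREs of other membranes, 11 lay above 0 in severe and 13 in mild against young mice, where 55.5% and 42.9% of all probe sets lay below 0. In middle-aged against young mice 13 already did, and against middle-aged mice 8 of 16 did in both presbycusis groups. Stx7, a syntaxin of late endosomes, had 1845, 2765 and 3141 in young controls (lowest, median and highest) and 2967, 2990, 3286, 3316 and 3590 in severe mice. All 5 severe mice lay above the young mean and 3 above the highest young mouse, and 14 of the 17 middle-aged mice also lay above the young mean. It differed by 0.30 (SE 0.11, adjusted p 0.416 by limma). Stx17, the syntaxin of autophagosomes, had 391, 749 and 831 in young controls and 606, 793, 837, 906 and 1078 in severe mice. Of these 4 of 5 lay above the young mean, and Stx17 differed by 0.38 (SE 0.16, adjusted p 0.506 by limma). The lowest young value was that of young mouse 2, whose array had cerebellar signal, against 446 to 831 in the other young controls. Over the alternatives the Stx17 difference ranged from 0.12 to 0.57. Its 3 other probe sets gave 0.09, -0.15 and 0.14. Vamp3, a SNARE of recycling endosomes, differed by 0.31 (SE 0.13, adjusted p 0.55 by limma), with 5 of 5 severe mice above the young mean. Its lowest young value, 2316, was again that of young mouse 2, against 2466 to 3603 in the other young controls. The 4 other Vamp3 probe sets ranged from -0.03 to 0.27. In the same comparison the summed intensity of the 10 microglia markers went from a median of 7877 in young to 16426 in severe mice, and its part in these values was not tested.

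**Figure D2:**
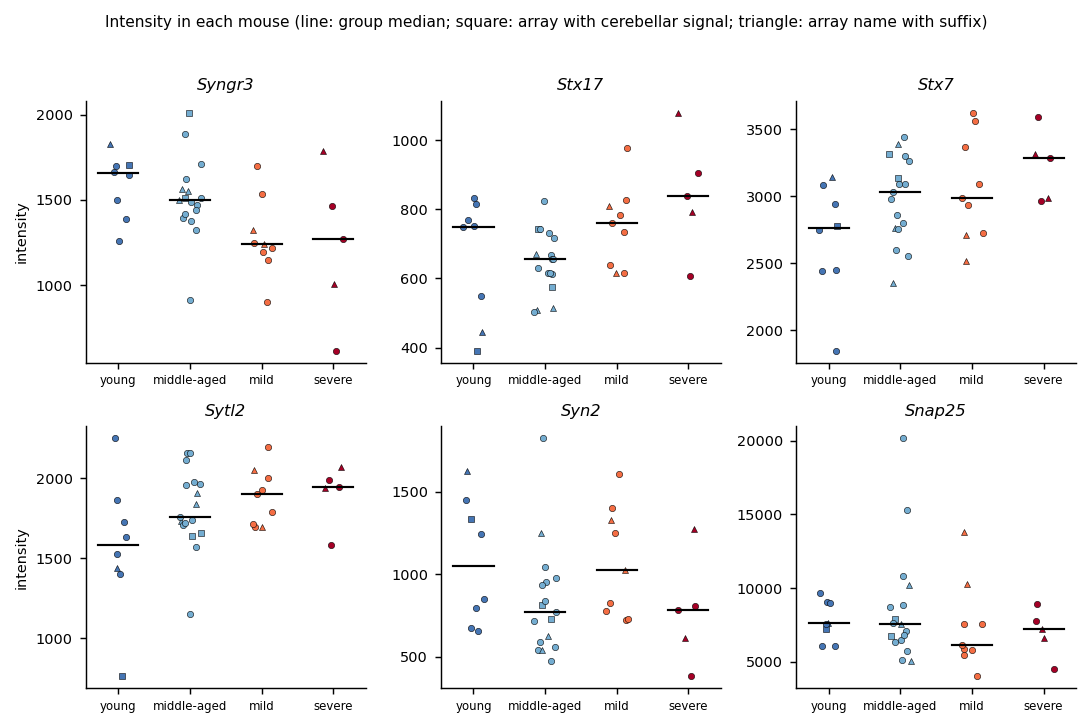
Intensity (y axis, linear) of Syngr3, Stx17, Stx7, Sytl2, Syn2 and Snap25 in each mouse of the 4 groups (x axis), with lines at group medians, squares for arrays with cerebellar signal and triangles for arrays with a suffix in their name. The groups overlap in each panel, and 3 of the 5 severe mice lie above the highest young mouse for Stx7.

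Among the 8 Rab proteins outside the Rab3 group, 6 lay above 0 in severe mice. Rab34 differed by -0.36 (SE 0.15, adjusted p 0.668 by limma) in mild against young mice, with 8 of 9 mice below the young mean. Rab32, which was dim, differed by 0.58 in severe mice with an interval reaching beyond 1 log2 unit.

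A narrower list of 19 measured genes keeps to proteins that work at the presynaptic terminal. In severe against young mice 15 of the 19 lay below 0, with a median of -0.12 against -0.03 over all probe sets, and 0 were called. In mild against young mice 15 lay below 0 (median -0.10 against 0.03), and along the steps 17 did (median -0.04 per step). Of the 56 other members, 23 lay below 0 in severe and 15 in mild mice. The direction in mild mice was not stable, since 5 to 18 of the 19 lay below 0 over the alternatives, the fewest among males alone. The mild median was 0.06 among males alone (0.06 over all probe sets). Among females alone it was -0.32, with 16 below 0 (-0.003 over all). In severe mice the range was 13 to 16 and along the steps 13 to 18, with 13 when the 3' over 5' ratio was a covariate. These 2 ranges hold no fit among males alone, because the severe group has 1 male. Among females alone the severe median was -0.24 (-0.07 over all). Single mice moved the medians. The severe median was -0.07 without severe mouse 1 (-0.05 over all probe sets) and -0.18 without severe mouse 3 (0.01 over all), and the mild median was -0.03 without young mouse 3. The 10 neuron markers moved with the list (8 of 10 below 0 in severe mice, median -0.24), with a summed intensity of 24441 to 33563 in young and 22065 to 27040 in severe mice, and their part in it was not tested.

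**Figure D3:**
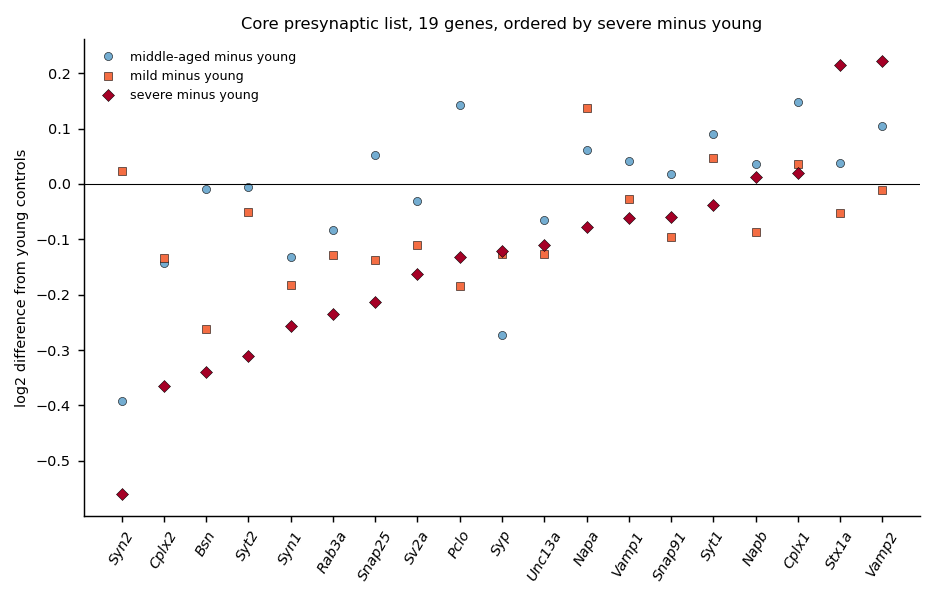
Log2 difference from young controls (y axis) of the 19 core presynaptic genes (x axis) in middle-aged (circles), mild (squares) and severe mice (diamonds), ordered by the severe difference. Of the diamonds 15 lie below 0, none of the differences was called, and the 3 series share the same young controls.

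Presynaptic genes outside the members showed no called change either. Of 9 measured genes of vesicle filling, 15 of the active zone and priming, 11 of fusion partners and vesicle membrane and 20 of endocytosis, 0 were called in severe against young mice. For Slc32a1, the transporter that fills vesicles with GABA, the difference was -0.61 (SE 0.22), and for Ppfia4, a liprin scaffold, -0.97 (SE 0.32). The Slc32a1 medians lay closer, with 1446, 1624 and 4716 in young controls (lowest, median and highest) and 869, 1505 and 1858 in severe mice. Synpr, synaptoporin, a relative of synaptophysin, differed by 0.58 (SE 0.26). Among endocytosis genes Ap2a2 and Ap2m1, subunits of the clathrin adaptor AP-2, differed by -0.40 (SE 0.13) and -0.49 (SE 0.20). Their adjusted p by limma were 0.353, 0.273, 0.579, 0.261 and 0.525.

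The second question was whether the sexes differ in the same contrasts. It was asked after Vamp7 had passed among females alone, in a fit of group by sex that gave 3 differences between the sexes; the severe group, with 1 male, allowed none. Between young and mild mice 1 of 75 members differed between females and males at an adjusted p under 0.05, where 1.23% of all probe sets did. At an unadjusted p under 0.05 there were 19 members (25.3%), against 15.4% of all probe sets. With a covariate for the array name suffix there were 11 (14.7%, against 12.6%), and on the arrays without a suffix 11 (14.7%, against 11.1%). In the same contrast the medians of marker lists were -0.67 for cerebellum (8 of 9 below 0) and -0.46 for endothelium (5 of 6 below 0). They were 0.71 for meninges (1 of 6 below 0) and -0.21 for neurons (7 of 10 below 0), 0 called in each. At an unadjusted p under 0.05 there were 2 genes for cerebellum, 3 for neurons and 0 for endothelium and meninges. The cerebellum median was -0.79 in females and -0.004 in males. Of the 4 young females 1, young mouse 2, had cerebellar signal, and their marker sums ranged from 2441 to 34517. Of the astrocyte markers 1 was called (median -0.14, 4 of 6 below 0). Medians were 0.13 for microglia, 0.004 for oligodendrocytes, -0.04 for choroid plexus, -0.25 for the colliculus and 0.14 for forebrain, again with 0 called. The core list of 19 members had a median of -0.37 (16 below 0), against -0.07 over all probe sets. The part of these marker lists in the members' values was not tested. Middle-aged against young mice gave 0 of 75 members and 0 probe sets by limma (0%), with 13 members (17.3%) and 7.27% of all probe sets at an unadjusted p under 0.05. Mild against middle-aged mice gave 4 members, where 2.97% of all probe sets were called, and 15 (20%) at an unadjusted p under 0.05, against 17.5% of all.

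The member that differed between young and mild mice was Syp, on the X chromosome. The 4 young females had intensities of 616, 803, 1447 and 1455, and the 4 mild females 391, 403, 486 and 493.2. The 4 young males had 525.8, 556, 649 and 742, and the 5 mild males 697, 809, 1096, 1372 and 1578. All mild females lay below all young females and below all mild males, and mild males lay above young males but for an overlap of 1 value. Syp fell by 1.17 on the log2 scale in females (SE 0.31, adjusted p 0.0297 by limma). In males the difference was 0.78 (SE 0.29, not called). The difference between the sexes was -1.95 (SE 0.42, 95% interval -2.81 to -1.08, adjusted p 0.0129).

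The Syp difference between the sexes ranged from -2.18 to -1.77 when any 1 of the young or mild mice was left out, and its adjusted p stayed under 0.05. It was -2.05 (adjusted p 0.0178) without the 3 arrays with cerebellar signal and -1.95 (adjusted p 0.0146) with the 3' over 5' ratio as a covariate. The arrays with a suffix in their name include young mouse 3 (female) and mild mice 7 and 8 (male), whose Syp values were the highest of their groups. With the suffix as a covariate the difference was -1.63 and no longer passed (adjusted p 0.0625), and among the 31 arrays without a suffix it was -1.46 (adjusted p 0.135). The 8 arrays with a suffix include no mild female, so they give no value. The second Syp probe set was not called, with a difference of 0.04 (SE 0.26) in females and of -0.43 (SE 0.36, adjusted p 0.608) between the sexes.

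Besides Syp, females of the mild group differed from young females in Vamp7 and Stx7. In all 3 members were called among females, where 2.68% of all probe sets were, and 0 among males (0.0265%). At an unadjusted p under 0.05 there were 12 members among females (16%, against 15.3% of all) and 7 among males (9.33%, against 7.21%). Vamp7, an endosomal SNARE also on the X chromosome, had 671, 712, 765 and 787 in young females and 866, 1010, 1303 and 1510 in mild females, with no overlap. Young males had 916, 936, 952 and 1100, all above the young females, and mild males 762 to 1106. Vamp7 rose by 0.63 in females (SE 0.18, adjusted p 0.0454 by limma), and the difference between the sexes was 0.75 (SE 0.25, adjusted p 0.112). Its second probe set gave 0.72 for the latter. Stx7 rose by 0.44 in females (SE 0.12, adjusted p 0.0414), from a median of 2614 in young to 3463 in mild females, and its difference between the sexes was 0.45 (SE 0.17, adjusted p 0.168). Without the 3 arrays with cerebellar signal, which include young mouse 2, a female, Vamp7 differed by 0.59 (adjusted p 0.0973) and Stx7 by 0.49 (adjusted p 0.055), close to the values with them but not called. With single mice left out, 0 to 3 members were called among females, and 0 without young mouse 7, mild mouse 1 or mild mouse 4.

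**Figure D4:**
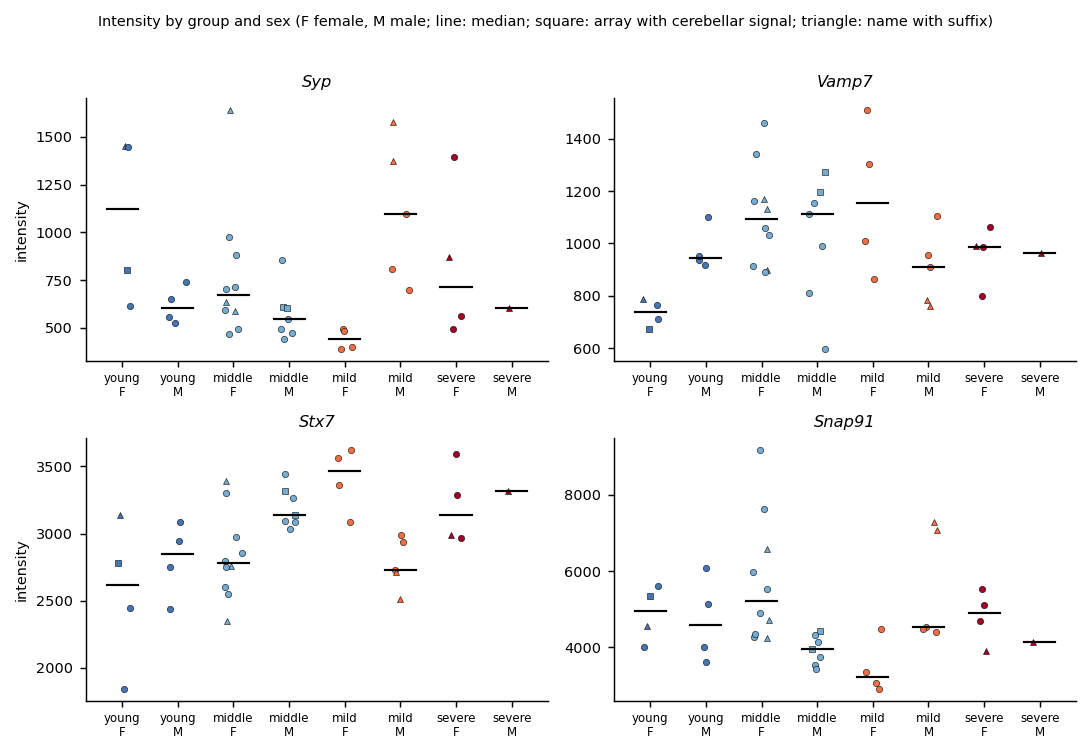
Intensity (y axis, linear) of Syp, Vamp7, Stx7 and Snap91 in each mouse by group and sex (x axis; F female, M male), with lines at medians, squares for arrays with cerebellar signal and triangles for arrays with a suffix in their name. For Syp the 4 mild females (391 to 493.2) lie below the 5 mild males (697 to 1578).

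Between middle-aged and mild mice the sexes differed in Syp (-1.58, SE 0.36, adjusted p 0.0159 by limma), Snap91 (-1.17, SE 0.25, adjusted p 0.0114), Napa (0.88, SE 0.24, adjusted p 0.0369) and Rab30 (2.15, SE 0.58, adjusted p 0.0371). Snap91 had a median of 5217 in middle-aged and 3210 in mild females, and of 3952 and 4541 in the males. Napa had medians of 1370 and 1981 in females, and of 1845 and 1292 in males, while its second probe set gave a difference of 0.21 (SE 0.19). Rab30, a Golgi Rab that was dim here, had medians of 31.98 and 92.9 in females and of 86.8 and 22.4 in males. With the 3' over 5' ratio as a covariate 0 of the 4 were called, at -1.60 for Syp, -0.82 for Snap91, 0.72 for Napa and 1.32 for Rab30. That ratio had a median of 2.65 in middle-aged and 2.27 in mild females and of 2.21 and 2.46 in the males. Without the 3 arrays with cerebellar signal, 2 of which are middle-aged males, Snap91 and Syp were called, and among the 31 arrays without a suffix 0 were, at -1.17 for Syp, -0.95 for Snap91, 0.98 for Napa and 2.15 for Rab30.

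The third question was whether isoforms of one synapse type vary together between mice. For 6 pairs the correlation was taken over 39 arrays after removing group and sex, with permutation tests adjusted over the 6. Syt2 and Vamp1, both isoforms of fast synapses, had a Pearson r of 0.52 (adjusted permutation p 0.00516) and a Spearman rho of 0.46 (adjusted permutation p 0.0226). Without middle-aged mice 2 and 15, farthest from the median of Syt2, r was 0.33. It was 0.55 without the arrays with cerebellar signal, 0.58 among the 31 arrays without a suffix and 0.26 among the 8 with one. Middle-aged mouse 15, lowest for both genes, had a log2 3' over 5' ratio of 1.49, where all arrays ranged from 1.38 to 3.06. The part of this ratio in the correlation was not tested, and no correlations of arbitrary gene pairs were taken for comparison. Cplx1 had r of 0.12 with Syt2 (adjusted permutation p 0.692) and 0.03 with Vamp1 (adjusted permutation p 0.859).

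Of the pairs known from forebrain synapses, Syt1 and Vamp2 had r of 0.42 (adjusted permutation p 0.0229) but a rho of 0.29 (adjusted permutation p 0.154). Vamp2 and Cplx2 had r of 0.37 (adjusted permutation p 0.0509), and Syt1 and Cplx2 0.03 (adjusted permutation p 0.859). The printed promoters of Syt2, Vamp1 and Cplx1 each hold a GC box, as do 44 of the 74 member promoters, and a link to these correlations was not tested.

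**Figure D5:**
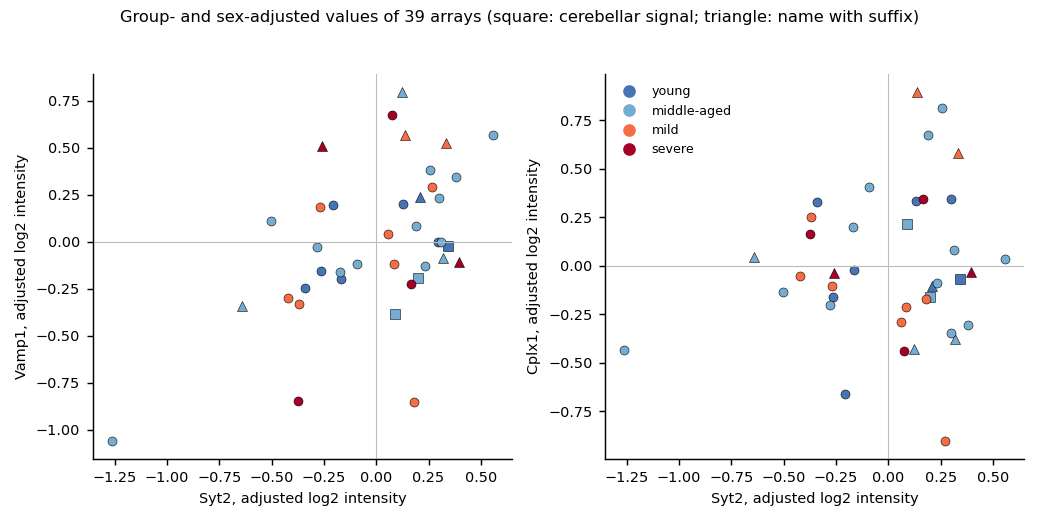
Log2 intensity after removing group and sex in 39 arrays, Vamp1 against Syt2 (left, r 0.52) and Cplx1 against Syt2 (right, r 0.12), coloured by group, with squares for arrays with cerebellar signal and triangles for arrays with a suffix in their name. In the left panel 1 middle-aged mouse lies at the lower left, far from the others.

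Members varied between mice of one group by a within-group SD of 0.15 (Sytl1) to 0.86 (Rab30) log2 units, Rab30, Stx19, Syt5, Rab32 and Stxbp4 having the widest spread. Of the 75 members, 52 had a mean above the median probe set and 14 lay in the dimmest 40%. Where a gene had several probe sets, 42 of 64 others had the sign of the chosen one in severe against young mice. The arrays with cerebellar signal differed from their groups in some members. Rab30 and Napa lay above the group mean on all 3, by 1.09 and 0.51 log2 units on average. In young mouse 2 Napa had 2442 against 1042 to 1743 in the others. Syt13, an unusual synaptotagmin, had 112 in young mouse 2 against 162 to 239 in the other young controls, and 174 and 97.7 in middle-aged mice 7 and 8 against 132 to 271. Syt17 had 166 against 235 to 491 in young mouse 2, and 195 and 311 in middle-aged mice 7 and 8 against 197 to 445.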

How the data were processed

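Per the labels, RNA from the inferior colliculus of 39 mice was hybridised to 1 Affymetrix MOE430A array each. The authors deposited linear signal intensities for every probe set of each array, and the sources used here do not give the algorithm or scaling behind them. A deposited workbook of RMA signals for a few picked probe sets holds none of the members. Only its column names were read, for the suffix in array names, and another 249 per-sample columns in it were not used. The number of arrays limits the precision.

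Array controls (64 probe sets) were left out. Of the 22626 others, 20380 carry 1 gene symbol, 691 several and 1555 none in the platform annotation, and genes were named only from the first kind. Intensities were taken to log2 after adding 16 and fitted in limma 3.58.1 (R 4.3.3) with group means, sex as a covariate and a variance trend (34 residual degrees of freedom). P-values were Benjamini-Hochberg adjusted over all probe sets. Each mouse is 1 sample. Permutation tests of correlations drew 100000 resamples (two-sided; SciPy 1.17.1, NumPy 2.4.6, Python 3.11.15). The fits were tested on simulated data.

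The members, gene lists, tests and the naming rule were chosen with earlier results of these data known. Members were named if they were among the 3 smallest p in either direction of a comparison, in the core list, among the 5 widest within-group SDs, the 5 largest disagreements between probe sets or the 5 largest deviations on arrays with cerebellar signal, and up to 3 genes of each other presynaptic list by p. Members named for the fit of group by sex or for an interval beyond 1 log2 unit were chosen after their values were seen. Alternatives changed the pseudocount, normalization, filter on dim probe sets, covariates, variance model, probe set choice and arrays. Promoters are from RefSeq (GRCm38.p6).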

Additional observations from a re-analysis of the deposited data

Results flagged for a closer look

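Among 46 named members, 138 groups of 4 to 10 mice were examined for a mouse far from the rest of its group, and 10 stood apart. Chance would give about 1 in 20 groups for genes named without regard to their values. Some of these members were named for their spread or deviation in the same data, among them Rab32, Stxbp4, Syt5 and Cplx2. That rate therefore does not hold here, and the count cannot be set against it. Young mouse 2, whose array had cerebellar signal, was highest for Cplx2 (4022, others 869 to 1543) and lowest for Sytl2 (761, others 1398 to 2250) and Vamp4 (1891, others 3064 to 3839). In the mild group, mouse 1 was lowest for Rab31 (1319, others 1828 to 2335), mouse 2 for Stx1a (314, others 544 to 834), mouse 4 for Rab32 (1.71, others 37.1 to 111) and mouse 8 for Syt5 (39.9, others 107 to 213). In the severe group, mouse 1 was lowest for Sytl2 (1585, others 1941 to 2068) and highest for Vamp8 (222, others 141 to 158), and mouse 2 was lowest for Stxbp4 (27.6, others 155 to 277).

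The sexes differed in the same contrast for 5 results by limma. The female minus male difference was -1.95 for Syp between young and mild mice. Between middle-aged and mild mice it was -1.58 for Syp, -1.17 for Snap91, 0.88 for Napa and 2.15 for Rab30. These come from a fit added after the data were seen, and the second probe sets of Syp and Napa were not called.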

How the results depend on the processing

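No paired analysis was possible because mouse numbers are unique to a mouse and pair no animals across groups. Each young, mild and severe mouse was left out in turn, but of the middle-aged mice only mouse 4. The count of 0 members called was the same in every alternative for severe or mild presbycusis against middle-aged mice, middle-aged against young, severe against young or mild mice and males against females. Against it stood 1 member in mild against young mice among females alone (Vamp7), and a range of 0 to 1 with single mice left out, both for presbycusis against good hearing and for the steps, Syngr3 being called without severe mouse 3. The members' median in severe against young mice moved to -0.0867 among females alone.

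The counts from the fit of group by sex were less stable. For the difference between the sexes from young to mild mice, 0 members were called with a covariate for the suffix in array names and 0 on arrays without a suffix, and 1 to 2 with single mice left out. From middle-aged to mild mice, 2 were called with arrays centred, 7 with array weights, 2 without the arrays with cerebellar signal, 0 with the 3' over 5' covariate, 2 with the suffix covariate, 0 on arrays without a suffix, and 1 to 6 with single mice left out (1 without mild mouse 7, 2 without mild mouse 1, 3, 4 or 5). Among females, 1 was called with arrays centred, 1 with array weights, 1 without a variance trend, 1 with the suffix covariate, 1 on arrays without a suffix, and 0 to 3 with single mice left out. The cause was not tested. Vamp7 and Stx7, called in females, differed by -0.12 and -0.01 in mild against young mice among males alone. The severe group has 5 mice, 1 of them male.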

Other observations

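The 5 arrays with the highest Snap25 intensity were also the 5 with the highest Cplx1 intensity, an overlap seen only after the values were examined. They belong to middle-aged mice 13, 11 and 1 and mild mice 8 and 7. Snap25 was 20148, 15326, 10814, 13809 and 10272 there, against 4038 to 10225 on the other 34 arrays. Cplx1 was 8122, 7371, 6119, 7388 and 5935, against 2108 to 5363. The overlap was not particular to these genes. Middle-aged mice 13 and 11 also had the highest summed intensities of all arrays for neuron (40168 and 36494) and oligodendrocyte markers (28083 and 25544). In middle-aged mouse 1 and mild mice 8 and 7 the neuron sums were 31465, 32178 and 29481, below the 33563 of young mouse 1. Of these 5 arrays, 4 were among the 10 with the highest 3' over 5' ratio, whose part in the values was not tested.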
